A study of Mus musculus with 10 samples.

Results

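The 10 genes described here encode subunits of BAF, the chromatin remodeller of the SWI/SNF family, that exist in a progenitor version and a neuronal version. They were chosen by symbol for this known role, with earlier results of these data known, and all 10 were among the 18216 genes listed. The progenitor versions were Actl6a, Phf10, Dpf2, Ss18 and Smarcd1, and the neuronal versions were Actl6b, Dpf1, Dpf3, Ss18l1 and Smarcd3. The study sequenced RNA from prefrontal cortex of 5 Arid1b heterozygotes (HT1 to HT5) and 5 wild-type mice (WT1 to WT5), 1 library per mouse, all male C57BL/6N mice at postnatal day 10, with no drug treatment named in the labels. HT mice carried 1 Arid1b allele with a CRISPR/Cas9 deletion at exon 5 and a short insertion that truncates the protein, and 2 intact alleles were present in WT mice. The mutation was in the germline and in every cell, it came from a single edited line, and it was passed on by heterozygous fathers mated to WT females, so maternal genotype was the same in both groups.

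BAF complexes use ATP to move or remove nucleosomes and are assembled from interchangeable subunits. When a neural progenitor leaves the cell cycle, several positions of the complex exchange one gene product for a related one. At the BAF53 position Actl6a (BAF53a) gives way to Actl6b (BAF53b), an actin-related protein needed for dendrite growth. At the BAF45 position Phf10 (BAF45a) gives way to Dpf1 (BAF45b) and Dpf3 (BAF45c), which read histone tails through PHD fingers, while Dpf2 (BAF45d) is found in complexes of both stages and was counted with the progenitor versions here. At the SS18 position Ss18 gives way to Ss18l1 (CREST), a coactivator of calcium-dependent transcription in neurons. At the BAF60 position Smarcd1 (BAF60a) was set against Smarcd3 (BAF60c), a subunit best known from heart and muscle. The assignment of this last pair to versions is less settled than that of the others. The exchange at the BAF53 position is brought about by the microRNAs miR-9-3p and miR-124, which bind the 3′ untranslated region (UTR) of Actl6a, and REST holds these microRNAs down in progenitors.

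The microRNA and the site behind the BAF53 exchange are shown first, because Actl6a and Actl6b form the pair with the widest gap between versions. The mature miR-9-3p sequence (RefSeq, GRCm38.p6) is encoded on the plus strand at chr13:83738858-83738879, chr3:88215652-88215673 and chr7:79505318-79505339. Capitals mark the seed, bases 2 to 8, and in the UTR the 7 letters that pair with it.
miR-9-3p: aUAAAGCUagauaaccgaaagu
Actl6a 3′ UTR: cacctcaacgtctgtAGCTTTAgtacactc
The stretch from Actl6a lies at chr3:32726625-32726654 on the plus strand of GRCm38, and the matched letters begin at position 38 of the 371 bases of that UTR. The letters AGCTTTA were searched on the transcript strand of 1 coding transcript per gene, and Actl6a was the only one of the 10 genes to hold them. Among 14952 genes with a 3′ UTR, 1681 (11.2%) held these letters, with a median UTR length of 983 bases. The libraries were made from poly-A RNA, so mature microRNAs have no values here.

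The versions of a pair are separate genes on different chromosomes, and little of their sequence occurs in another gene. Coding sequences of Actl6a and Actl6b were 75.5% identical, those of Ss18 and Ss18l1 67.6%, and those of Smarcd1 and Smarcd3 67.2%. At the BAF45 position Dpf2 was 61.5% identical to Dpf1 and 64.2% to Dpf3, and the neuronal genes Dpf1 and Dpf3 were 66.3% identical to each other. The longest stretch with the same letters in both coding sequences is shown for 3 pairs, to give the scale of what the versions share (GRCm38, 5′ to 3′ along the transcript).
Actl6a and Actl6b: tcattcctccttacatgattgca
Smarcd1 and Smarcd3: gaagatggctgacaaaatcct
Dpf2 and Dpf1: gacctaccgctggcagtgcat
They measure 23, 21 and 21 bases and lie at chr3:32718446-32718468 (plus strand) and chr5:137564731-137564753 (plus) for the Actl6 pair, at chr15:99703603-99703623 (plus) and chr5:24596817-24596837 (minus) for the Smarcd pair, and at chr19:5902147-5902167 (minus) and chr7:29315673-29315693 (plus) for the Dpf pair. The longest stretch common to Ss18 and Ss18l1 had 22 bases, that of Dpf2 and Dpf3 18, and that of the neuronal genes Dpf1 and Dpf3 31. Of the 31-base words in the transcripts of Ss18, 7.10% also occurred in transcripts of other genes, mostly Gm1826, so reads of Ss18 may be split with it. For the other 9 genes that share was between 0% and 1.11%.

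Values are normalised counts, which are estimated read counts per gene divided by a size factor of each library. Totals per library were between 31106330 and 32106791, and since these are scaled values the sequencing depth is unknown. HT2, HT5 and WT4 stood apart on the first principal component, with scores of 23.4, 20.8 and 19.8 against -0.63 or lower in the other 7 mice. HT2 also had the largest share of mitochondrial transcripts (8.43%, against 5.15% to 6.76%) and the lowest neuron marker score (-1.42, against -0.21 to 0.51), where a score is the mean z-score of the marker genes over the 10 mice. For Arid1b itself the HT mean was 1894 ± 86.6 and the WT mean 2842 ± 142 (SD, n = 5 each), without overlap, and every library matched its label.

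Levels were compared between genes after division by the exonic length of each gene, as normalised counts per kilobase over all 10 mice. Smarcd1 had the highest level, 1136 ± 42.7 per kilobase (SD, n = 10), followed by Actl6b with 569 ± 27.1. A group of 4 genes came next, with 411 ± 18.7 for Phf10, 385 ± 33.3 for Smarcd3, 356 ± 19.8 for Ss18l1 and 324 ± 14.3 for Dpf1. Neighbours within this group overlapped in their ranges over the mice, so their order is not fixed by these data. Dpf2 followed with 194 ± 14.7 and Ss18 with 102 ± 11.6. Actl6a (73.2 ± 5.67) and Dpf3 (30.1 ± 4.41) were the lowest. Apart from the group of 4, no range touched that of its neighbour in the order.

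The order at the bottom did not depend on how length was defined. Ss18, Actl6a and Dpf3 held the last 3 places, in this order, with the exonic length, the longest coding transcript, the median coding transcript and the coding length alike. Actl6b came above Smarcd1 with the longest coding transcript, at 1524 ± 72.6 against 1383 ± 52.0 per kilobase, and below it with the other 3 lengths. The progenitor versions were thus spread over the list, with Smarcd1 in the first or second place and Actl6a and Ss18 near the end with all 4 lengths.

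**Figure D1:**
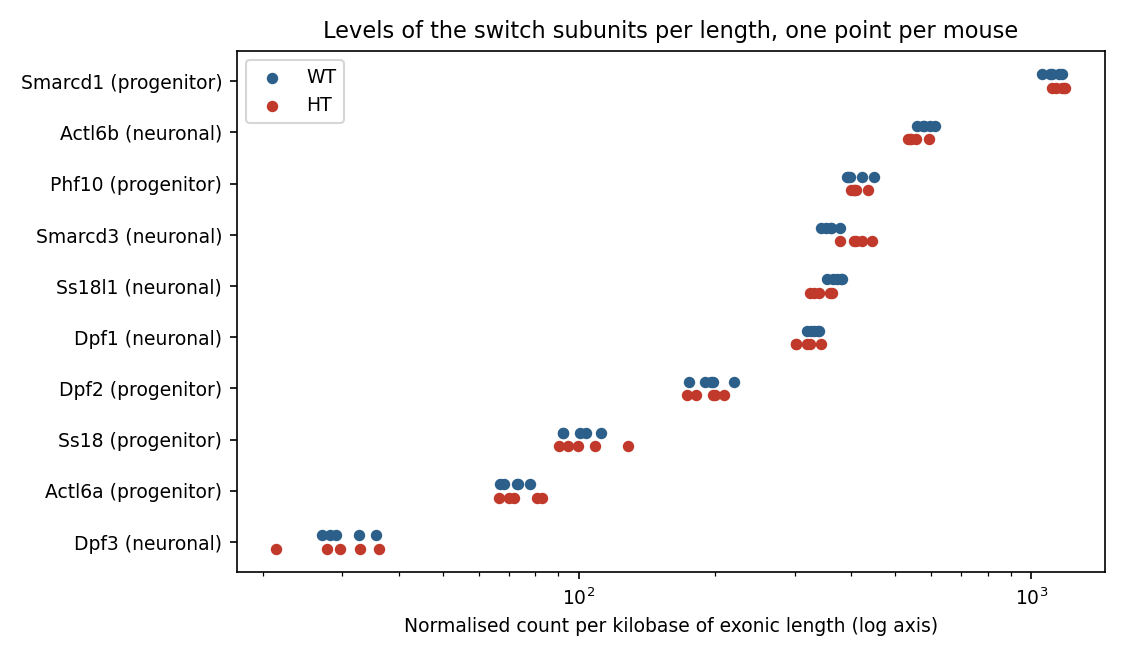
Normalised count per kilobase of exonic length (log axis) for each of the 10 genes, with 1 point per mouse and WT and HT on separate lines. Smarcd1 lies between 1055 and 1188 and Dpf3 between 21.4 and 36.2, and the ranges of Phf10, Smarcd3, Ss18l1 and Dpf1 overlap with their neighbours.

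The neuronal version made up most of the transcripts at 2 of the 4 positions. At BAF53 the level of Actl6b was 7.78 times that of Actl6a on average over the mice, from 6.49 to 8.90, and higher in 10 of 10 mice. At the SS18 position Ss18l1 was 3.50 times Ss18, from 2.58 to 4.14, and again higher in 10 of 10 mice. At BAF60 the order was the opposite, since Smarcd3 was below Smarcd1 in 10 of 10 mice, at 0.34 times its level. At BAF45 the summed level of Dpf1 and Dpf3 was 0.59 times that of Phf10 and Dpf2, and lower in 10 of 10 mice. That comparison counts Dpf2, found in complexes of both stages, on the progenitor side. The order of Dpf1 and Phf10 alone depended on the length. Dpf1 was at 324 against 411 per kilobase with the exonic length, and at 1460 against 1354 with the coding length. Nearly all of the neuronal side at this position came from Dpf1, as Dpf3 had the lowest level of the 10 genes. The size of these ratios depends on the length used. With the 4 lengths Smarcd3 was from 0.18 to 0.82 times Smarcd1, below it in all 10 mice each time. Ss18l1 was 1.08 times Ss18 and higher in 8 of 10 mice with the median coding transcript.

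The comparison of genotypes asked whether the balance of versions at postnatal day 10 differed in Arid1b heterozygotes. Genes whose normalised counts averaged 10 or more were tested with limma on log2(value + 1), and p-values were adjusted over all 16781 genes by the Benjamini-Hochberg method. All 10 subunit genes passed the filter. None of them (0 of 10) had an adjusted p under 0.05, where 3 of all genes tested did (0.0179%). An unadjusted p under 0.05 was found for 2 of 10, against 9.23% of all genes, and these were Smarcd3, higher in HT (1 of 10, against 4.71% of all genes in that direction), and Ss18l1, lower in HT (1 of 10, against 4.52%). Values of the 2 genotypes overlapped for every one of the 10 genes, whereas 1.62% of all genes had groups without overlap. In cortex tissue with all its cell types, fewer cells of a type cannot be told apart from less RNA per cell.

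**Figure D2:**
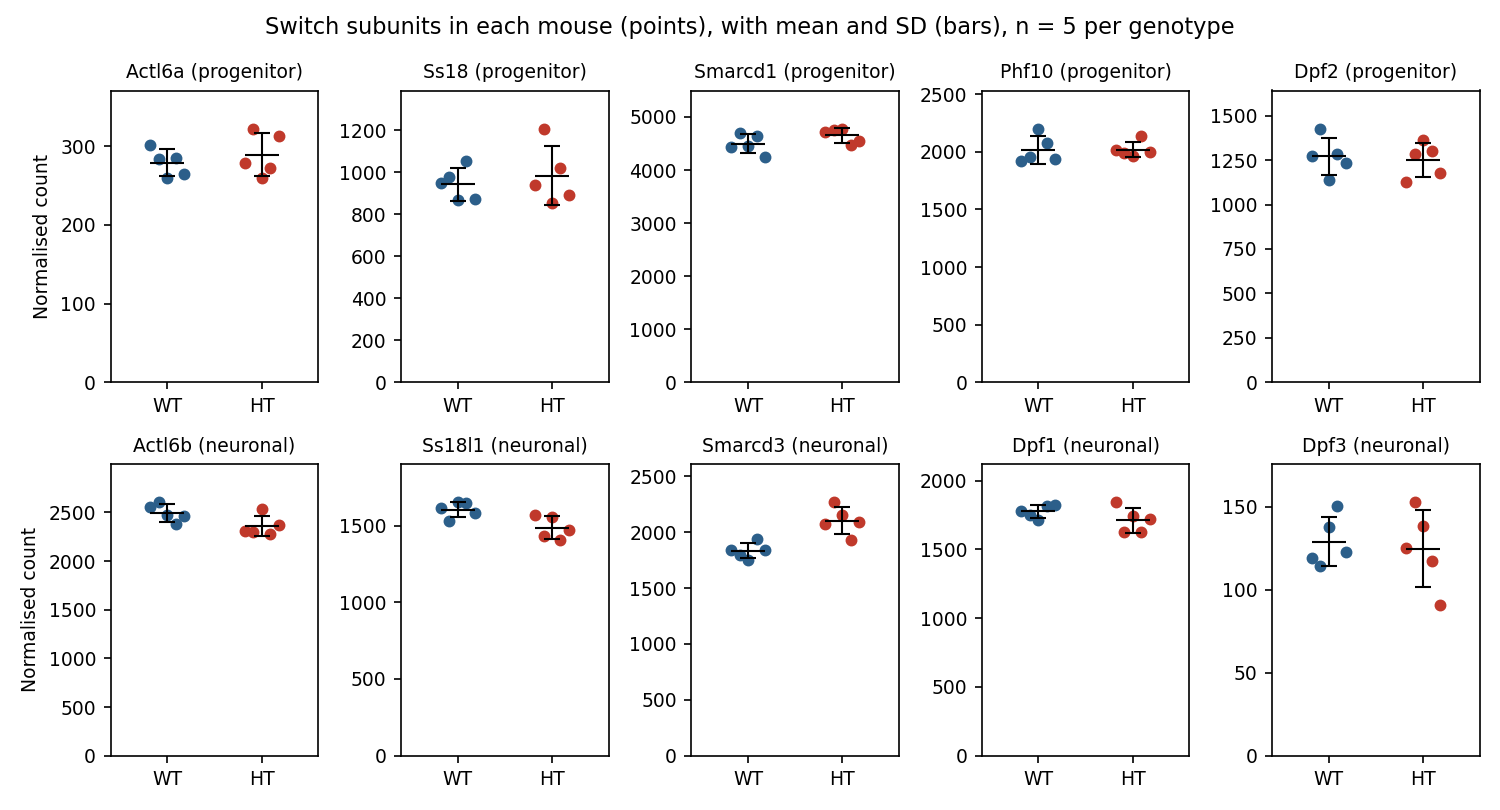
Normalised counts of the 10 genes in each WT and HT mouse (points), with the mean and SD of 5 mice per genotype (bars) and axes that start at 0. Smarcd3 is the gene with the widest gap between genotypes, with 4 of 5 HT points above all WT points, and the points of the 2 genotypes overlap in every panel.

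Smarcd3 had the largest difference. Smarcd3 (ENSMUSG00000028949, chr5:24590818-24624411, minus strand) had normalised counts of 2074, 2271, 2158, 1932 and 2092 in HT1 to HT5 and of 1845, 1801, 1752, 1936 and 1846 in WT1 to WT5. Of the HT mice 4 lay above every WT mouse, and HT4 lay just under WT4, the highest of the WT mice. The mean was 2106 ± 124 in HT and 1836 ± 67.9 in WT (SD, n = 5 each), so HT had 115% of the WT level. On the log2 scale the difference, HT minus WT, was 0.20 (SE 0.05, 95% interval 0.09 to 0.30), with a limma p of 0.00148, rank 60 of all genes, and an adjusted p of 0.389. Without HT2 the difference was 0.17, with an unadjusted limma p of 0.0032, and without HT2, HT5 and WT4 it was 0.18, with a p of 0.00434. With the astrocyte marker score as a covariate it was 0.17, with a p of 0.0134, and with the neuron marker score it was 0.17, with a p of 0.00331. Over 23 alternative settings the unadjusted p was under 0.05 in 23, and the adjusted p ranged from 0.319 to 0.979.

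Its counterpart Smarcd1 did not show a difference of this size. Smarcd1 (ENSMUSG00000023018, chr15:99702129-99713991, plus strand) had normalised counts of 4711, 4749, 4782, 4466 and 4556 in HT1 to HT5 and of 4429, 4700, 4459, 4637 and 4247 in WT1 to WT5. HT1, HT2 and HT3 were just above the highest WT mouse, and the other HT mice were within the WT range. Means were 4653 ± 135 in HT and 4494 ± 180 in WT (SD, n = 5 each), a log2 difference of 0.05 (SE 0.04, 95% interval -0.04 to 0.14, limma adjusted p = 0.690). The share of Smarcd3 among the transcripts of the pair, per kilobase, was 25.7, 27.3, 26.2, 25.4 and 26.5% in HT1 to HT5 and 24.7, 23.1, 23.6, 24.7 and 25.5% in WT1 to WT5. Only WT5 reached into the HT values. The means were 26.2% ± 0.75 in HT and 24.3% ± 0.93 in WT (SD, n = 5 each), 1.91 points (SE 0.54) apart. As a log2 ratio, the difference was 0.15 (SE 0.04), which was 2.24 times the pooled SD of the mice, and 0.12 without HT2, HT5 and WT4, and no test was run on the ratios. Smarcd1 remained the more abundant version in every mouse of both genotypes.

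Ss18l1 was the other gene with an unadjusted p under 0.05. Ss18l1 (ENSMUSG00000039086, chr2:180042509-180070201, plus strand) had normalised counts of 1570, 1433, 1557, 1404 and 1471 in HT1 to HT5 and of 1613, 1533, 1654, 1645 and 1580 in WT1 to WT5. All 5 HT mice were below the WT mean and 3 were below every WT mouse, with HT1 and HT3 inside the WT range. The mean was 1487 ± 73.9 in HT and 1605 ± 49.7 in WT (SD, n = 5 each), so HT had 92.7% of the WT level. The log2 difference was -0.11 (SE 0.05, 95% interval -0.21 to -0.01), with a limma p of 0.0341 and an adjusted p of 0.511. The unadjusted call depended on the libraries and covariates. Without HT2 the difference was -0.10, with an unadjusted limma p of 0.0628, and without HT2, HT5 and WT4 it was -0.08, with a p of 0.176. With the astrocyte marker score as a covariate it was -0.05, with a p of 0.324, and with the neuron marker score -0.09, with a p of 0.0745, while with the striatum marker score it was -0.11, with a p of 0.0453. The astrocyte score itself differed by genotype, with means of 0.47 in HT and -0.47 in WT. Its effect and that of genotype therefore cannot be fully told apart. With this covariate 783 of all genes had an unadjusted limma p under 0.05, against 1549 without it. Of 23 alternative settings, 13 had an unadjusted p under 0.05, and adjusted p ranged from 0.411 to 0.979.

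Ss18, the progenitor version at this position, varied more between mice than it differed between genotypes. Ss18 (ENSMUSG00000037013, chr18:14624198-14682914, minus strand) had normalised counts of 937, 1207, 852, 1021 and 891 in HT1 to HT5 and of 946, 977, 867, 1054 and 869 in WT1 to WT5. HT2 had the highest and HT3 the lowest value of all mice, and the other HT mice were within the range of the WT mice. The log2 difference was 0.05 (SE 0.09, 95% interval -0.14 to 0.24, limma adjusted p = 0.865), and it was -0.03 without HT2. Ss18l1 made up 76.7% ± 3.17 of the pair in HT and 78.7% ± 1.48 in WT (SD, n = 5 each), a difference of -2.03 points (SE 1.56). The lowest share, 72.0%, was that of HT2, and the HT range of 72.0% to 79.9% overlapped with the WT range of 77.2% to 80.5%. The log2 ratio differed by -0.16 (SE 0.13) with all mice and by -0.07 without HT2. It differed by 0.00 with the astrocyte marker score as a covariate, a score that itself differed between genotypes. With replicate number as a block in the fit, the difference was -0.16 (SE 0.07).

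At the BAF53 position the neuronal version was slightly lower in most HT mice. Actl6b (ENSMUSG00000029712, chr5:137553517-137569582, plus strand) had normalised counts of 2309, 2300, 2535, 2282 and 2368 in HT1 to HT5 and of 2553, 2607, 2474, 2378 and 2459 in WT1 to WT5. Of the HT mice 4 lay below every WT mouse, and HT3 was among the higher WT values. Means were 2359 ± 104 in HT and 2494 ± 88.6 in WT (SD, n = 5 each), so HT had 94.6% of the WT level. The log2 difference was -0.08 (SE 0.04, 95% interval -0.18 to 0.01), with a limma p of 0.0891 and an adjusted p of 0.574. Without HT2, HT5 and WT4 the difference was -0.09. Only without HT3, among 23 alternative settings, was the unadjusted p under 0.05 (0.0297).

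Actl6a (ENSMUSG00000027671, chr3:32706298-32726973, plus strand) had normalised counts of 279, 323, 259, 273 and 313 in HT1 to HT5 and of 302, 284, 260, 285 and 265 in WT1 to WT5. HT2 and HT5 were above all WT mice, and the other HT mice were at or below the WT mean. The log2 difference was 0.05 (SE 0.08, 95% interval -0.13 to 0.23, limma adjusted p = 0.865), and without HT2, HT5 and WT4 it was -0.04. The share of Actl6b in the pair was 88.3, 86.7, 89.9, 88.4 and 87.3% in HT1 to HT5 and 88.5, 89.3, 89.6, 88.4 and 89.4% in WT1 to WT5. HT2 and HT5 had the lowest shares, and HT3 the highest. Means were 88.1% ± 1.23 in HT and 89.1% ± 0.58 in WT (SD, n = 5 each), a difference of -0.94 points (SE 0.61). The log2 ratio differed by -0.13 (SE 0.09) with all mice and by -0.05 without HT2, HT5 and WT4. It differed by 0.00 with the astrocyte marker score as a covariate, a score that itself differed between genotypes.

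**Figure D3:**
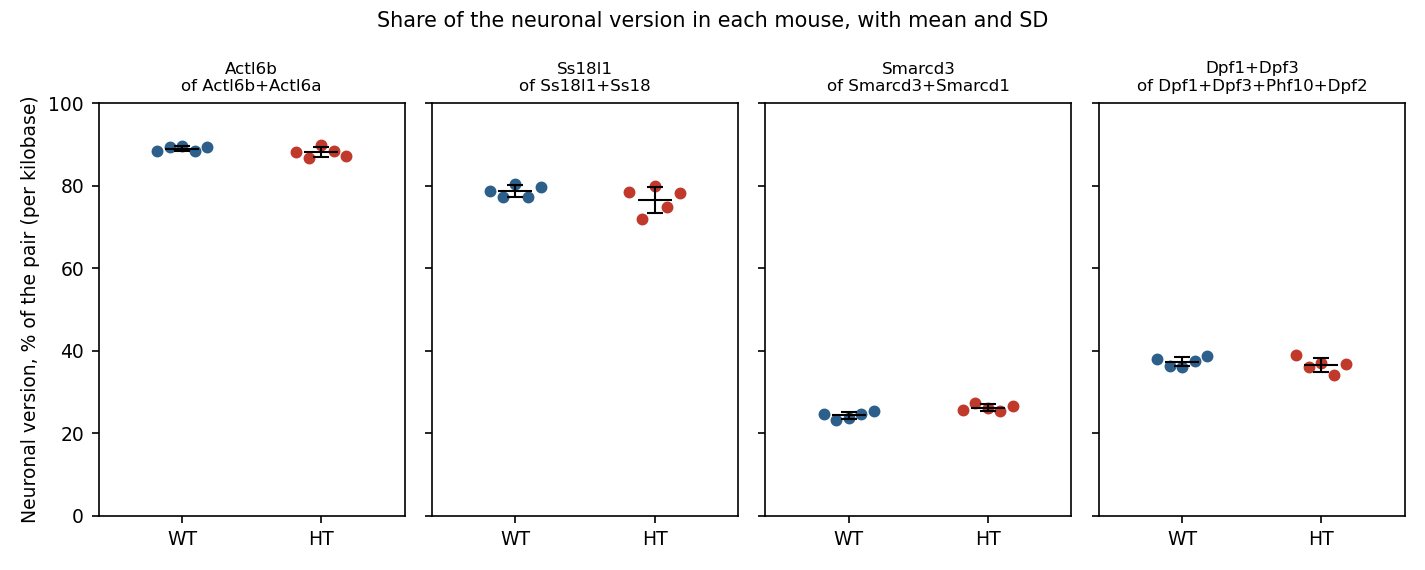
Share of the neuronal version in the summed level of both versions, in percent of normalised counts per kilobase of exonic length, for each mouse, with the mean and SD of 5 mice per genotype. Actl6b and Ss18l1 hold most of their pairs and Smarcd3 the smaller part of its pair, with 26.2% in HT and 24.3% in WT on average.

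At the BAF45 position the differences were within the spread between mice for all 4 genes. Dpf1 (ENSMUSG00000030584, chr7:29303951-29318243, plus strand) had normalised counts of 1844, 1625, 1742, 1624 and 1717 in HT1 to HT5 and of 1775, 1750, 1712, 1817 and 1825 in WT1 to WT5, a log2 difference of -0.06 (SE 0.05, 95% interval -0.16 to 0.04, limma adjusted p = 0.70). HT1 had the highest value of all mice while HT2 and HT4 had the lowest. Dpf3 (ENSMUSG00000021221, chr12:83213745-83487716, minus strand) had the lowest values and the widest interval, with 125, 153, 138, 117 and 90.6 in HT1 to HT5 and 119, 114, 138, 150 and 123 in WT1 to WT5. Its log2 difference of -0.06 (SE 0.14, 95% interval -0.37 to 0.25, limma adjusted p = 0.902) leaves room for a change in either direction. The lowest value, in HT5, and the highest, in HT2, were both from HT mice.

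Phf10 (ENSMUSG00000023883, chr17:14945009-14961273, minus strand), a subunit of the related PBAF complex, had normalised counts between 1966 and 2134 in HT and between 1920 and 2203 in WT. The log2 difference was 0.00 (SE 0.05, 95% interval -0.10 to 0.11, limma adjusted p = 0.988). Phf10 is the only one of the 10 genes on the chromosome of Arid1b, 9.95 Mb from its start. Dpf2 (ENSMUSG00000024826, chr19:5896516-5913010, minus strand) had values between 1129 and 1363 in HT and between 1137 and 1428 in WT, and a log2 difference of -0.02 (SE 0.07, 95% interval -0.17 to 0.12, limma adjusted p = 0.924). The summed level of Dpf1 and Dpf3 was 36.6% ± 1.72 of the BAF45 total in HT and 37.3% ± 1.11 in WT (SD, n = 5 each), a difference of -0.76 points (SE 0.92). Both the highest share, 39.0% in HT1, and the lowest, 34.2% in HT4, came from HT mice.

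By version, the progenitor list held 4 genes with a higher and 1 with a lower mean in HT, with a median log2 difference of 0.05. The neuronal list held 1 with a higher and 4 with a lower mean, with a median of -0.06. Over all genes tested the median was 0.00 and 48.8% were higher in HT. In the progenitor list 0 of 5 genes and in the neuronal list 2 of 5 had an unadjusted p under 0.05, in opposite directions, beside 9.23% of all genes. The signs of all 10 genes were the same with upper-quartile rescaling and with quantile normalisation, while Actl6a and Ss18 turned negative with the astrocyte or the neuron marker score as a covariate, and Dpf3 turned positive with the astrocyte marker score. HT2 had the highest value of all 10 mice for Actl6a, Ss18, Dpf3 and Smarcd3, and HT4 the lowest for 3 of the 10 genes.

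**Figure D4:**
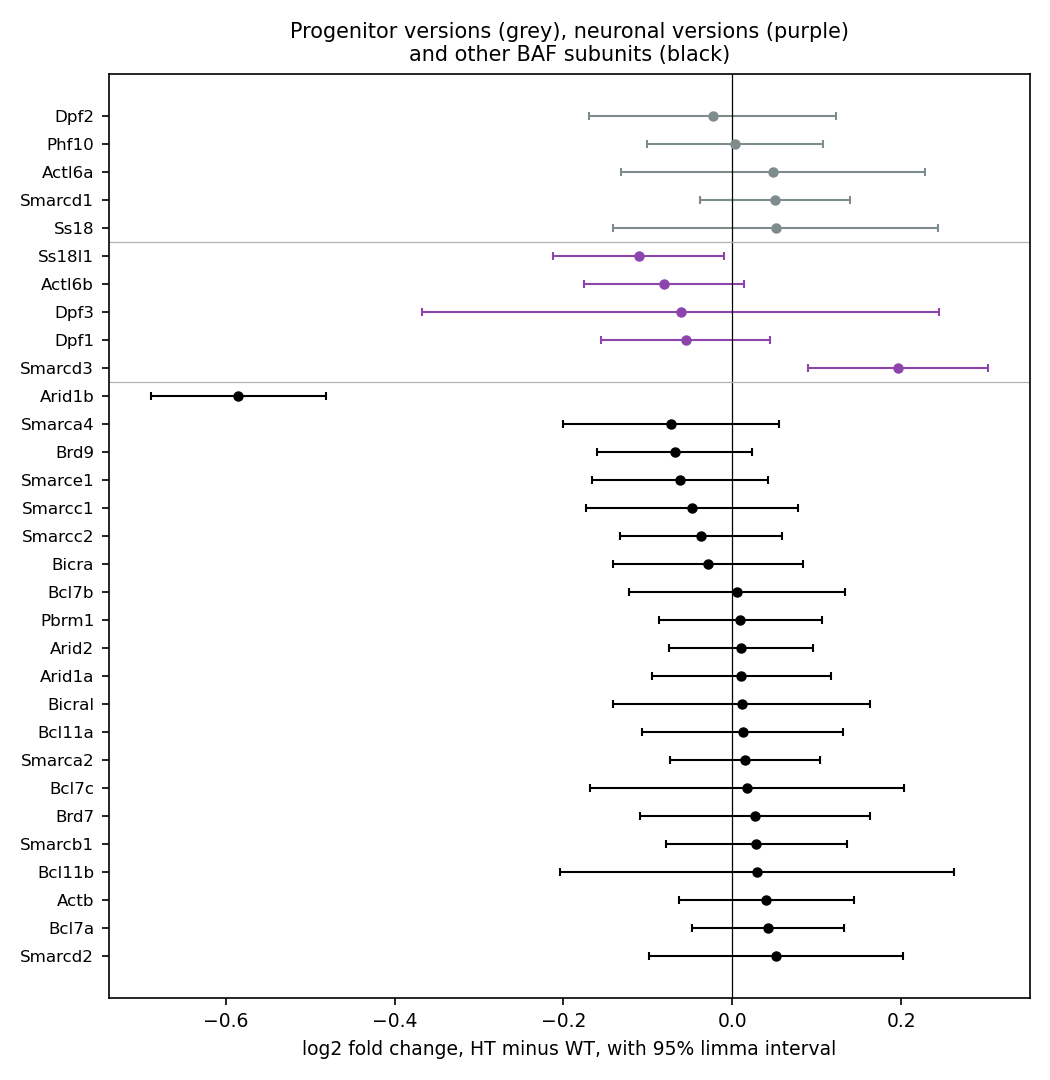
Log2 differences between HT and WT (points) with 95% limma intervals (bars) for the 5 progenitor versions, the 5 neuronal versions and 21 other BAF subunits. Arid1b (-0.59) and, without adjustment for the number of genes, Smarcd3 (0.20) and Ss18l1 (-0.11) have intervals that leave out 0.

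The other subunits of the complex gave the frame for these values. Of 21 further BAF and PBAF subunits, only Arid1b had an adjusted p under 0.05 (0.0179% of all genes did), with a log2 difference of -0.59 (SE 0.05, limma adjusted p = 9.96e-05). The remaining 20, among them the ATPases Smarca2 and Smarca4, the core subunits Smarcb1, Smarcc1 and Smarcc2, and the alternative ARID subunits Arid1a and Arid2, had 0 genes with an unadjusted p under 0.05, beside 9.23% of all genes. Their log2 differences ranged from -0.07 to 0.05, with 14 higher and 6 lower in HT and a median of 0.01. The differences of Smarcd3, Ss18l1 and Actl6b were outside that range, as was that of no progenitor version. Smarcd2, the third BAF60 gene and a subunit known from blood cells, had a difference of 0.05.

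The genes known to act on the exchange of versions were then examined. Of 9 such genes 0 had an adjusted p under 0.05 by limma and 1 had an unadjusted p under 0.05 (11.1%, near the 9.23% of all genes). This was Ctdspl (ENSMUSG00000047409), which encodes a small phosphatase of the RNA polymerase II tail that works with REST in repressing neuronal genes. It had normalised counts between 978 and 1053 in HT and between 806 and 960 in WT, which did not overlap (in that direction, higher in HT, 0.703% of all genes had no overlap). Its log2 difference was 0.18 (SE 0.06), with a limma p of 0.00995 and an adjusted p of 0.477, and with the astrocyte marker score as a covariate it was 0.15, with an unadjusted p of 0.0667. Rest, Ctdsp1 and Mir9-3hg were named after their values were seen, because of their known roles. Rest had normalised counts of 228 ± 35.1 in HT and 219 ± 20.1 in WT (SD, n = 5 each), a log2 difference of 0.05 (SE 0.11, limma adjusted p = 0.900). Ctdsp1, a close relative of Ctdspl and a known target of miR-124, had a log2 difference of 0.21 (SE 0.10, limma adjusted p = 0.550). Mir9-3hg, a host transcript of miR-9, had a log2 difference of 0.17 (SE 0.08, limma adjusted p = 0.542), and its level is not that of the mature microRNA. The other 5, the splicing regulators Ptbp1 and Ptbp2, the REST cofactor Rcor1 and 2 host transcripts of miR-124, had differences between -0.08 and 0.04.

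Values of marker genes show how the makeup of the dissected tissue varied between the mice. Every marker of the lists given here had a value above 0 in every mouse, those of neurons included, and 0 had an adjusted p under 0.05 by limma. Counts below are at an unadjusted p under 0.05, which 4.71% of all genes met as higher and 4.52% as lower in HT. Of 10 astrocyte markers 6 were higher in HT, led by Fgfr3, Aldoc, Gja1 and Gfap, with summed normalised counts of 160362 to 204110 in HT and 146254 to 172826 in WT. The number was 3 without HT2, 3 without HT5 and 1 without HT2, HT5 and WT4, and Gfap was at 13936 in HT5 against 3572 to 5007 in the other HT mice. Of 14 neuron markers 2 were lower (Stmn2 and Tubb3), with sums of 233937 to 294209 in HT and 273634 to 301112 in WT. Without HT2 the neuron count was 1 lower and 1 higher, and without HT2, HT5 and WT4 it was 0 lower and 1 higher, with a median log2 difference of 0.00 in place of -0.06. Of 13 progenitor markers 11 had a higher mean in HT, with a median log2 difference of 0.13, and of 0.15 without HT2, HT5 and WT4. At an unadjusted limma p under 0.05, 2 were higher (Vim and Ccnb1), and 1 was higher without HT2, HT5 and WT4. Sums were 8065 to 13209 in HT and 7798 to 11364 in WT. Higher values in HT were also found for 1 of 10 oligodendrocyte-lineage markers (Cspg4) and 2 of 8 microglia markers (Ctss and C1qa). Means were higher in HT for 10 of 10 of the former (median log2 difference 0.24) and 8 of 8 of the latter (median 0.16). The oligodendrocyte-lineage count was 3 without HT5 and 0 without HT2, HT5 and WT4, and the microglia count was 0 in each fit without HT2, without HT5 or without the 3 mice. The count was 0 for 8 vascular (Flt1 and Vtn the most abundant), 11 striatum (Pde10a and Ppp1r1b) and 4 olfactory bulb markers (Cdhr1 and Doc2g), and for vascular markers it was 1, lower in HT, without HT2 and also without the 3 mice. Olfactory bulb markers varied between mice of both genotypes. Cdhr1 was at 2009 in HT2 and 2197 in WT4, against 391 to 1382.5 in the other mice. Doc2g was at 354 in HT2 and 350 in WT4, against 64.4 to 168 in the others. Of the striatum markers 10 of 11 had a higher mean in HT, with a median log2 difference of 0.42 and sums of 7826 to 23877 in HT and 6839 to 18877 in WT, and at an unadjusted p under 0.05 there were 6 of 11 higher without HT5 and 10 of 11 higher without HT2, HT5 and WT4, with a median of 0.95. These counts without libraries were chosen after seeing the data. The part of progenitors, oligodendrocyte-lineage cells, microglia and olfactory bulb tissue in the values of the 10 subunit genes was not tested. With the astrocyte and the neuron score as covariates Smarcd3 was at 0.17 in both and Ss18l1 at -0.05 and -0.09, and with the striatum score they were at 0.19 and -0.11.

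**Figure D5:**
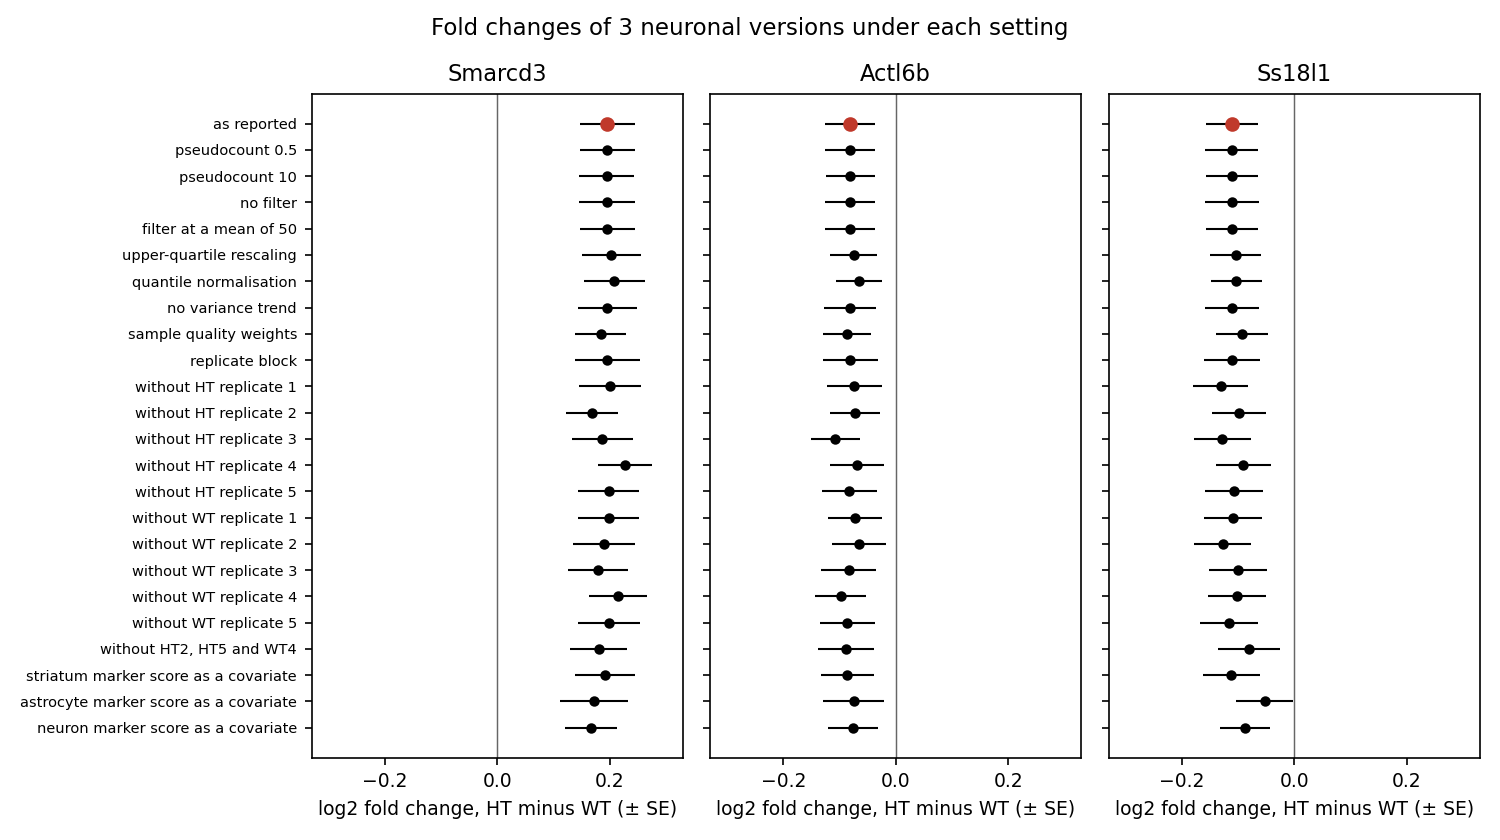
Log2 differences between HT and WT with their SE for Smarcd3, Actl6b and Ss18l1 as reported (red) and under each of 23 alternative settings (black). Smarcd3 stays between 0.17 and 0.23, Actl6b between -0.11 and -0.06, and Ss18l1 comes closest to 0, at -0.05, with the astrocyte marker score as a covariate.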

How the data were processed

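Per the labels and the study's methods, poly-A RNA of intact quality (by RNA integrity number) went into stranded libraries (the labels name a stranded kit) that were sequenced as read pairs, and transcript abundance was estimated by the authors with Salmon 1.1.0 on GRCm38 with GC bias correction. The authors imported gene estimates with tximport and divided them by DESeq2 1.30.1 size factors, so the deposited values are a normalised signal per gene and not whole reads. Only 5.74% to 20.3% of low values per library were whole multiples of 1 step (tolerance 0.02 of a step), so reads were not recovered, and no count test was run. Depth is unknown, and precision was taken from the spread between mice. A filter on low genes is not stated, and the lowest row total was 41.7. Size factors hide any change in total RNA.

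Groups and replicate numbers came from the sample titles. Symbols, positions and lengths came from GENCODE M21 (18205 of 18216 identifiers matched), and miR-9-3p from RefSeq. Genes averaging 10 or more (16781) were tested on log2(value + 1) with limma 3.58.1 in R 4.3.3 (lmFit, eBayes allowing a trend of variance with the mean), by genotype alone, with Benjamini-Hochberg adjustment at 0.05. Fold changes of low genes are understated on this scale. Ratios of versions were formed from values per kilobase and were not tested. Python 3.11.15 with pandas 2.3.3 and scipy 1.17.1 was used otherwise.

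The 10 genes, the gene lists and the alternatives were chosen with earlier results of these data known. Named genes were the 10 subunits, Arid1b, genes of the other BAF list with an unadjusted p under 0.05 (with none, the 3 of smallest p), and of each regulator or marker list up to 4 genes with an unadjusted p under 0.05 (with none, the 2 of highest mean). Further BAF subunits, Rest, Ctdsp1 and Mir9-3hg were named afterwards for their known roles. A further marker list was left out and is not reported here. The labels tie no mouse to a litter or batch, so whether replicate numbers pair mice is unknown, and they were not treated as paired. The limma p-values set the difference of genotype means against the spread between these mice, moderated over all genes tested.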

Additional observations from a re-analysis of the deposited data

How the results depend on the processing

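Of 10 subunit genes 0 passed the adjusted threshold under all 24 alternatives run, including an adjusted p under 0.1, and the number of all genes past it was 3 or 4. Arid1b stayed between -0.61 and -0.55 on the log2 scale. The 2 subunit genes with an unadjusted p under 0.05 became 1 with sample quality weights, without HT2, HT5 and WT4, with the astrocyte marker score and with the neuron marker score as a covariate, and between 1 and 3 when each mouse was left out in turn (1 without HT2, HT4, HT5, WT1, WT3 or WT4, and 3 without HT3). Ss18l1 was the gene lost in these fits, and Smarcd3 was kept in every one. Among the 9 regulators the number was 2 with no filter, with quantile normalisation, with the replicate block and with the striatum marker score, 0 with the astrocyte marker score, and 1 to 3 when each mouse was left out. Signs turned for 5 genes whose differences were within their error. Actl6a was -0.038 without HT2, HT5 and WT4, -0.075 with the astrocyte score and -0.012 with the neuron score, Ss18 was -0.053 and -0.035 with these scores, and Dpf3 was 0.038 without the 3 mice and 0.045 with the astrocyte score. With each mouse left out in turn, Phf10 ranged from -0.017 to 0.035, Dpf2 from -0.063 to 0.019, Ss18 from -0.026 to 0.10 and Dpf3 from -0.14 to 0.049. The ratios of levels between versions depend on the length used. With the longest coding transcript, the median coding transcript and the coding length, the log2 ratio of Ss18l1 to Ss18 was 0.63, 0.11 and 0.75 in place of 1.81, that of Smarcd3 to Smarcd1 was -0.29, -2.49 and -1.13 in place of -1.57, and that of the Dpf pair to Phf10 and Dpf2 was -1.004, -0.52 and -0.61 in place of -0.77. The log2 ratio of Actl6b to Actl6a was 3.43 and 3.96 with the transcript lengths in place of 2.96. Length cancels in the differences between genotypes for pairs of single genes.

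Replicate numbers were checked for pairing, since both groups run from 1 to 5. Deviations of mice with the same number correlated by 0.04 on average (-0.04 to 0.10), against -0.01 on average for different numbers. Of the HT mice, 3 of 5 correlated best with their own number. Since the labels tie no number to a litter or batch and these correlations reached 0.10 at most, the mice were not treated as paired. With the replicate block 0 subunit genes passed the adjusted threshold and 2 had an unadjusted p under 0.05, Smarcd3 (0.20, with a limma p of 0.00686 and an adjusted p of 0.502) and Ss18l1 (-0.11, with a limma p of 0.0496 and an adjusted p of 0.556). For the log2 ratio of Ss18l1 to Ss18, the difference of -0.16 had an SE of 0.07 with the block and 0.13 without it. Depth is unknown here, and Dpf3, the gene of lowest level, had the widest interval.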
